A study of Homo sapiens with 4 samples.

Results

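The genes described here are the LSM ring that binds the 3′ end of U6 small nuclear RNA (snRNA) and 3 factors that process U6. The 10 members were taken by symbol and are LSM2 to LSM8, SART3, USB1 and MEPCE. A value was read for 9 of them, out of 18806 genes in the table, and LSM2 is not analysed here. All 9 passed the filter on low values, a mean of 1 TPM (transcripts per 1000000) or more, as did 11971 genes in all, which were then tested.

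RNA-seq had been conducted in Huh7, a cell line from a human hepatocellular carcinoma, in a single clone that expressed Cas9. The sgNS group (2 libraries, labelled WT) carried a lentiviral non-targeting guide, and the METTL16 KO group (2 libraries, labelled as a knockdown) carried a lentiviral guide against METTL16. All cells, controls included, had Cas9 and had been selected with hygromycin B, so that every value comes from 1 clone. Which METTL16 guide, or whether more than 1, was used for these libraries is not given in the sources used here. The study describes the 2 libraries of a group as biological replicates, but whether they came from separate transductions is not given in the sources used here. The p-values below rest on the spread between these libraries, combined for each gene with that of all genes tested at a similar level.

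U6 is the snRNA at the catalytic centre of the spliceosome, and it matures apart from the other spliceosomal snRNAs. RNA polymerase III makes it, MEPCE caps its 5′ end, USB1 trims its uridine tail, and the LSM2-8 ring then holds the trimmed tail. METTL16 methylates an adenosine of U6 in the stretch that pairs with the 5′ splice site, and SART3 anneals U6 with U4 for the next round of splicing. U6 snRNA itself is not analysed here, so the values below are those of the mRNAs of its partners.

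METTL16, the targeted gene, was at 26.29 and 25.14 TPM under sgNS, against 17.62 and 18.75 TPM under METTL16 KO. Both KO libraries were below both sgNS libraries, with a log2 fold change of -0.50 ± 0.062 (SE) and an adjusted p of 2.43e-05 (limma, Benjamini-Hochberg, as for every adjusted p below). A Cas9 edit can leave the mRNA in place, so this level does not measure the share of edited alleles. All 8 hepatocyte and hepatoma markers were expressed, from 159.96 TPM for HNF4A to 10386.5 TPM for AFP over the libraries, and 7 were higher and APOB was lower in METTL16 KO (6 higher after median-ratio scaling and after quantile normalization), where 50.1% of all genes tested were higher and 25.6% lower. Markers of other cell types were low: PTPRC, CD3E, COL1A1 and COL1A2 lay between 0.09 and 1.18 TPM, while CD68 was higher in KO (2.72 to 3.4 against 8.57 to 8.86 TPM) and PECAM1 lower (4.74 to 5.14 against 2.7 to 3.09 TPM). The part of these differences in the results below was not tested. TPM values share out a fixed total, of which the top 100 genes held 32.6% and 32.8% under sgNS, against 28.6% and 28.7% under METTL16 KO. Over the genes tested the log2 fold changes had a median of 0.16, so each member is also given after scalings that bring this median close to 0. Since these are bulk samples, fewer cells that use a gene and less RNA per cell cannot be told apart.

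USB1, the exonuclease that shortens the uridine tail of U6, showed the largest change of the 9 members. Its level was 35.48 and 34.1 TPM in sgNS and 67.92 and 72.31 TPM in METTL16 KO. The groups were far apart compared with the spread within each, and USB1 rose 2.01-fold (95% confidence interval 1.86 to 2.17, log2 fold change 1.01 ± 0.051 SE, adjusted p = 2.14e-08). This placed USB1 at percentile 92.4 of the log2 fold changes of all genes tested. It was the only member to rise at least 1.5-fold, as 19.5% of all genes tested did. Under median-ratio scaling, which divides each library by its median ratio to a common reference, the log2 fold change was 0.84 (adjusted p = 1.69e-07), and under quantile normalization it was 0.87 (adjusted p = 1.04e-06).

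Of the 9 members tested, 8 rose and 0 fell at an adjusted p under 0.05, where 50.1% of all genes tested rose and 25.6% fell. The values of the groups did not overlap for any of the 9 members, all higher in METTL16 KO, as for 56.8% of all genes tested, with 30.7% separate and lower. With median-ratio scaling 4 members rose and 0 fell, beside 36.4% and 36.5% of all genes, and with quantile normalization 5 rose and 0 fell, beside 36.9% and 35.5%. Without the second METTL16 KO library 5 members rose. USB1, LSM7, LSM3 and SART3 were past the test as deposited and under both scalings. The median log2 fold change of the members was 0.22 as deposited, 0.054 after median-ratio scaling and 0.099 after quantile normalization.

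**Figure D1:**
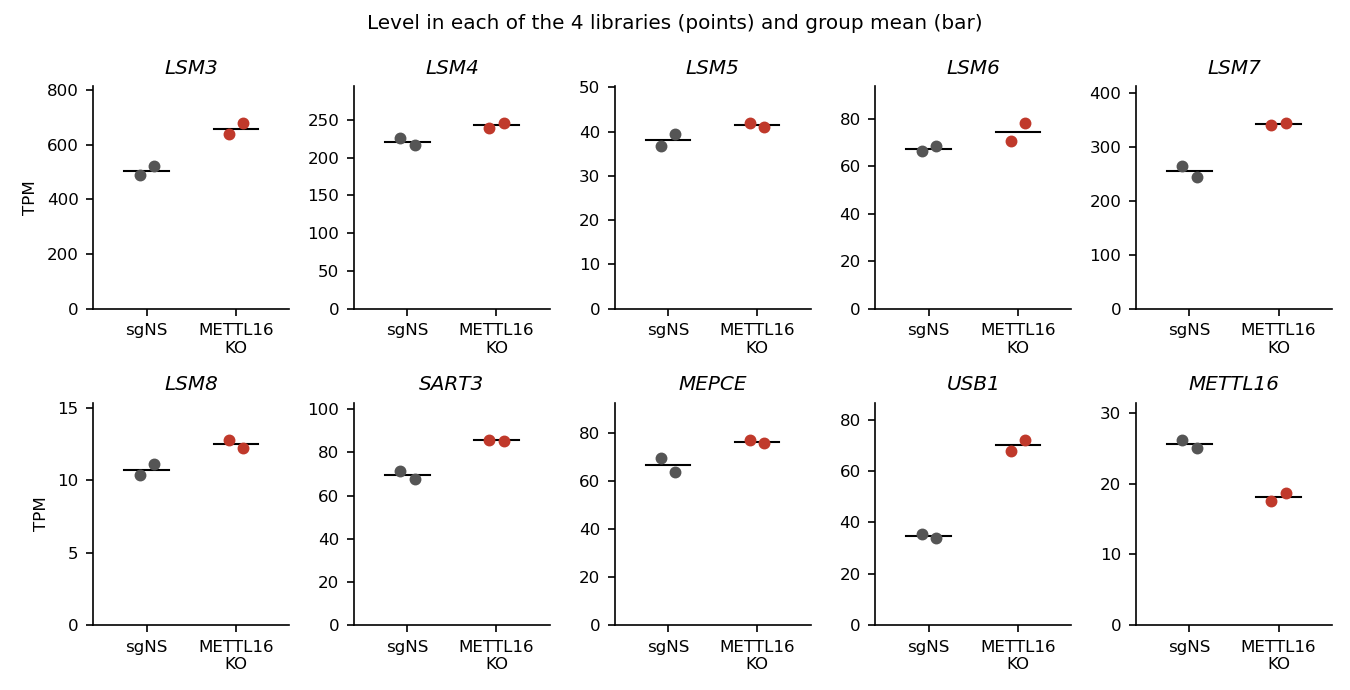
TPM (vertical axes from 0, 1 scale per gene) of the 9 members and METTL16 in the 2 sgNS libraries (grey points) and the 2 METTL16 KO libraries (red points), with the group mean as a bar. USB1 went from a mean of 34.8 to 70.1 TPM, and in each of the 9 members both KO points lie above both sgNS points.

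The ring subunits LSM3 to LSM7 are shared by 2 rings: with LSM8 they form the nuclear ring on U6, and with LSM1 the cytoplasmic ring that promotes decapping of mRNA. LSM7 was at 263.67 and 244.67 TPM under sgNS, against 341.06 and 343.84 TPM under METTL16 KO. The KO libraries lay close together and above both controls, and LSM7 rose 1.35-fold (1.27 to 1.43, log2 fold change 0.43 ± 0.039 SE, adjusted p = 1.94e-06). LSM3, the most abundant subunit, was at 490.57 and 521.04 TPM under sgNS, against 640.12 and 679.94 TPM under KO. It rose 1.30-fold (1.23 to 1.38, log2 fold change 0.38 ± 0.038 SE, adjusted p = 4.61e-06), and its groups were separated by more than the range of either. After median-ratio scaling LSM7 and LSM3 were higher by 0.27 and 0.22 on the log2 scale (adjusted p = 0.000109 and 0.000792), and after quantile normalization by 0.38 and 0.33 (adjusted p = 3.17e-05 and 7.01e-05).

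The other shared subunits moved little and stood below the median gene. LSM4 was at 225.54 and 217.2 TPM under sgNS, against 240.01 and 245.91 TPM under KO, a log2 fold change of 0.13 ± 0.035 (SE, adjusted p = 0.00475) that was 0.099 after quantile normalization (adjusted p = 0.0277) and -0.031 after median-ratio scaling (adjusted p = 0.438). Without the second KO library LSM4 was at 0.12 and no longer past the test (adjusted p = 0.0783). LSM6 was at 66.3 and 68.76 TPM under sgNS, against 70.8 and 78.27 TPM under KO. Its second KO library stood apart from the first, and the log2 fold change of 0.14 ± 0.053 (SE, adjusted p = 0.0316) was 0.068 without that library (adjusted p = 0.357), 0.11 without the first sgNS library (adjusted p = 0.12) and -0.025 after median-ratio scaling (adjusted p = 0.698). LSM5 was at 36.75 and 39.35 TPM under sgNS, against 41.91 and 40.92 TPM under KO. The log2 fold change of LSM5 was 0.12 ± 0.053 (SE), which did not pass the test (adjusted p = 0.0538) and was -0.043 after median-ratio scaling and -0.028 after quantile normalization. It turned on the sgNS libraries, being 0.074 without the first (adjusted p = 0.217) and 0.17, past the test, without the second (adjusted p = 0.0147). These 3 genes were at percentiles 47.4 (LSM4), 48.1 (LSM6) and 46.3 (LSM5) of all genes tested, compared with 71.3 for LSM7 and 67.8 for LSM3.

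LSM8, which distinguishes the nuclear ring from the cytoplasmic one, had the lowest level of the members. It was at 10.35 and 11.1 TPM under sgNS, against 12.79 and 12.19 TPM under METTL16 KO, and it rose 1.16-fold (1.04 to 1.31, log2 fold change 0.22 ± 0.076 SE, adjusted p = 0.0218). Both KO values exceeded both controls by little more than the difference within a group. After median-ratio scaling its log2 fold change was 0.054 (interval -0.11 to 0.22, adjusted p = 0.53), and after quantile normalization it was 0.057 (adjusted p = 0.509). LSM8 was also not past the test when the first sgNS library or either KO library was left out, with log2 fold changes between 0.17 and 0.25.

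LSM1, which takes the place of LSM8 in the cytoplasmic ring, was at 76.16 and 76.1 TPM under sgNS, against 104.23 and 105.95 TPM under METTL16 KO. LSM1 rose 1.38-fold (log2 fold change 0.46 ± 0.039 SE, adjusted p = 1.18e-06), with hardly any spread between the sgNS libraries. The ratio of LSM8 to LSM1, which a scaling factor per library does not change apart from the pseudocount, was 0.136 and 0.146 in sgNS and 0.123 and 0.115 in METTL16 KO. The groups did not overlap and the mean log2 ratio was lower by 0.25 in KO (means of -2.82 and -3.06). This ratio is a description with no test.

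Summed over the 6 ring genes measured (LSM3 to LSM8), the level was 1093.18 and 1102.12 TPM in sgNS and 1346.69 and 1401.07 TPM in METTL16 KO, a ratio of means of 1.25. On the log2 scale this ratio was 0.32 as deposited, where the median of all genes tested was already at 0.16. The sum is not given after the other scalings. LSM3 and LSM7 made up most of the sum, and the shares of the subunits in it shifted. LSM3 took 44.9% and 47.3% of the sum in sgNS and 47.5% and 48.5% in KO, and LSM7 went from a mean of 23.2% to 24.9%. Both shifts depended on single sgNS libraries: that of LSM3 was 1.96 percentage points with all libraries, 0.755 without the first sgNS library and 3.16 without the second, and that of LSM7 was 1.77, 2.73 and 0.814. LSM4 went from 20.6% and 19.7% to 17.8% and 17.6%, a shift of -2.48 percentage points (-2.02 without the first sgNS library and -2.94 without the second). LSM6 went from a mean share of 6.15% to 5.42% and LSM5 from 3.47% to 3.02%, both without overlap of the groups, while the share of LSM8 (0.977% and 0.910%) overlapped between groups. These shares are a description with no test.

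**Figure D2:**
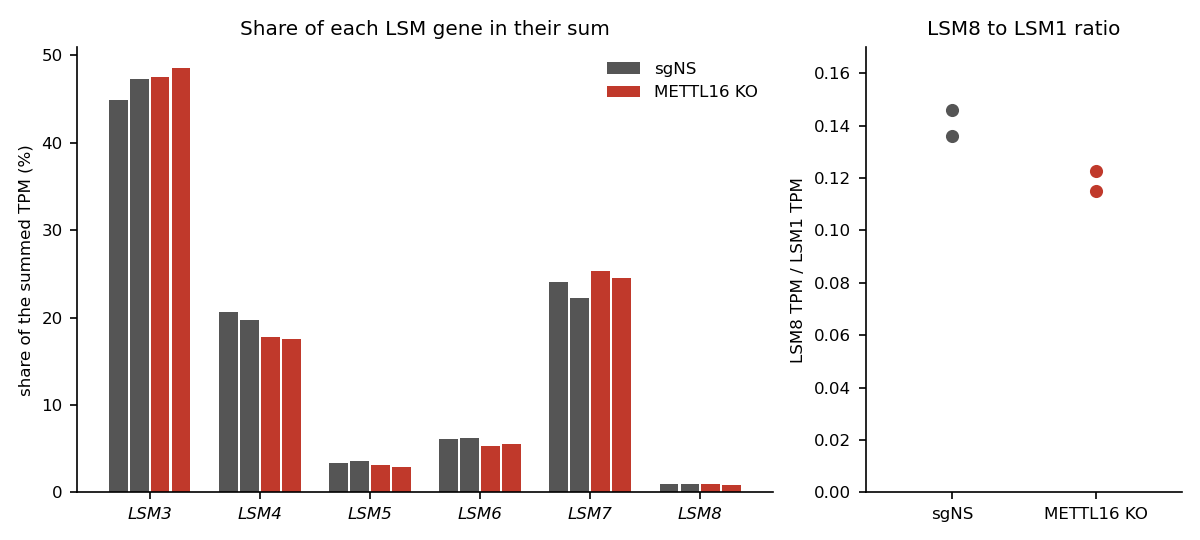
Left, share (%) of each of the 6 LSM genes in their summed TPM, with 1 bar per library (sgNS grey, METTL16 KO red). Right, ratio of LSM8 TPM to LSM1 TPM in each library, which was 0.136 and 0.146 in sgNS and 0.123 and 0.115 in METTL16 KO.

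SART3, the U4/U6 recycling factor, was at 71.19 and 67.69 TPM under sgNS, against 85.96 and 85.12 TPM under METTL16 KO. SART3 rose 1.23-fold (1.15 to 1.32, log2 fold change 0.30 ± 0.043 SE, adjusted p = 7.83e-05), and its KO libraries differed from each other by less than 1 TPM. After median-ratio scaling the log2 fold change was 0.14 (adjusted p = 0.0142), and after quantile normalization it was 0.16 (adjusted p = 0.00779). MEPCE, the enzyme that methylates the terminal phosphate of 7SK and U6, was at 69.59 and 63.95 TPM under sgNS, against 77.31 and 75.71 TPM under KO. It rose 1.15-fold (1.06 to 1.24, log2 fold change 0.20 ± 0.049 SE, adjusted p = 0.00364), with the larger spread in sgNS. Its log2 fold change was 0.032 after median-ratio scaling (adjusted p = 0.561) and 0.061 after quantile normalization (adjusted p = 0.284). Without the first KO library it was 0.18 (adjusted p = 0.0608).

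**Figure D3:**
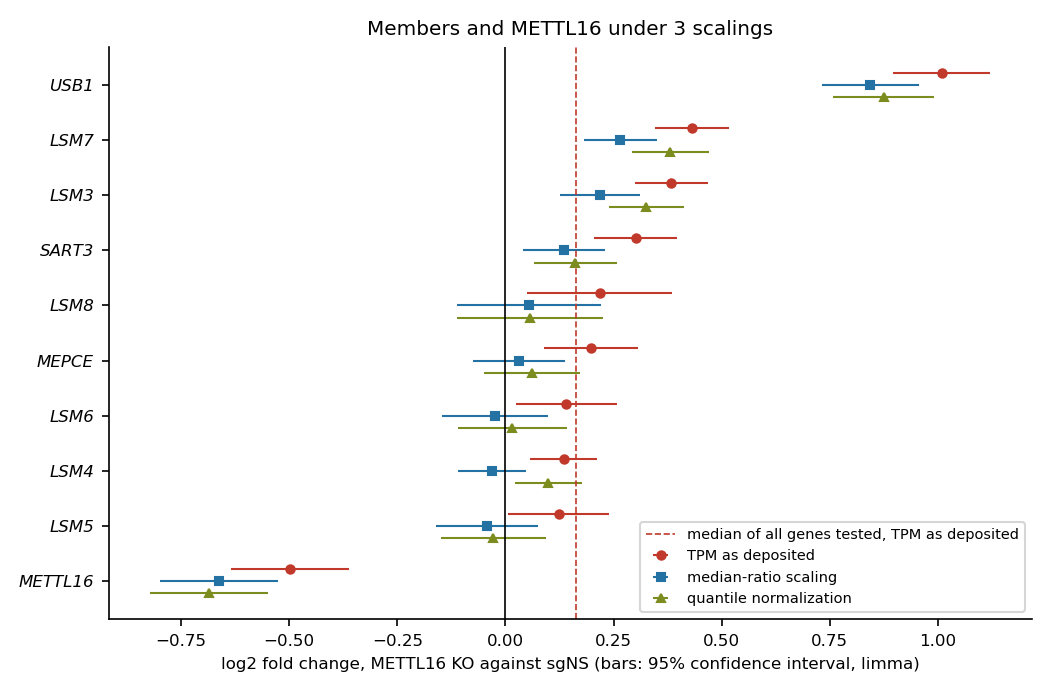
Log2 fold change (METTL16 KO against sgNS) of each member and METTL16 with its 95% confidence interval from limma, for TPM as deposited (red circles), median-ratio scaling (blue squares) and quantile normalization (green triangles). The dashed line is the median of all genes tested as deposited (0.16). The intervals of USB1, LSM7, LSM3 and SART3 are above 0 under all 3 scalings, and those of LSM8, MEPCE, LSM6 and LSM5 include 0 after both alternative scalings.

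TPM values are divided by transcript length, so the levels of the members can be set beside each other within a group. In sgNS the order was LSM3 (506 ± 21.5 TPM, SD, n = 2), LSM7 (254 ± 13.4), LSM4 (221 ± 5.90), then SART3 (69.4 ± 2.47), LSM6 (67.5 ± 1.74) and MEPCE (66.8 ± 3.99), whose libraries overlapped, then LSM5 (38.0 ± 1.84), USB1 (34.8 ± 0.976) and LSM8 (10.7 ± 0.530). In METTL16 KO the order changed at USB1 (70.1 ± 3.10 TPM), which stood above LSM5 (41.4 ± 0.700) without overlap and overlapped with LSM6 (74.5 ± 5.28). MEPCE (76.5 ± 1.13) overlapped with LSM6 in KO, and the other neighbours were separate. The LSM3 mRNA was 47.2 times as abundant as that of LSM8 in sgNS and 52.8 times in KO. Both proteins occur once in the nuclear ring, but LSM3 is also part of the cytoplasmic ring, and these libraries hold no protein levels.

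Positions are those of GENCODE 44 on GRCh38. USB1 is at chr16:57999546-58021618 on the plus strand, LSM3 at chr3:14178817-14201122 on the plus strand and LSM6 at chr4:146175703-146200000 on the plus strand. LSM4 (chr19:18306236-18323112) and LSM7 (chr19:2321520-2328611) are on the minus strand of the same chromosome, and SART3 (chr12:108522214-108561400) is on a minus strand too. LSM5 (chr7:32485338-32495283, minus strand), LSM8 (chr7:118184144-118204035, plus strand) and MEPCE (chr7:100428322-100434126, plus strand) share chromosome 7. GENCODE lists 4 pseudogenes of LSM3 and 1 of LSM6, so reads of these genes may be shared with copies, and their values are uncertain to that extent.

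USB1 starts beside a gene on the opposite strand, ZNF319, which codes for a zinc finger protein. ZNF319 was at 3.83 and 3.33 TPM under sgNS, against 10.02 and 10.51 TPM under METTL16 KO, a log2 fold change of 1.50 ± 0.10 (SE, adjusted p = 2.59e-07). The genes share 1127 bases of their spans and 210 exon bases, 2.39% of the 8773 exon bases of USB1. The strand setting of the counting is not given in the sources used here, and reads from these shared bases could not be told apart without it. For SART3 the overlap with FICD was 21 exon bases (0.275%), and for MEPCE the overlap with ZCWPW1 was 203 exon bases (6.02%), with log2 fold changes of 0.64 for FICD and -0.17 for ZCWPW1 (adjusted p = 0.411).

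The sequences before the start sites of the 3 members with the largest changes are shown because these genes rose under every scaling. RefSeq (GRCh38.p14) gave 12 start sites for 8 of the 10 members, and SART3 and LSM6 were not matched. Capitals mark GGGCGG or its complement CCGCCC, the GC box recognised by Sp1 and related factors, or TATAAA, and each run is the 250 bases before a start. The USB1 start shown first (bases chr16:58001157-58001406, plus strand) is 735 bases from the 5′ end of ZNF319, which lies on the minus strand. The upstream USB1 start (chr16:57999353-57999602, plus strand) lies inside ZNF319:
USB1: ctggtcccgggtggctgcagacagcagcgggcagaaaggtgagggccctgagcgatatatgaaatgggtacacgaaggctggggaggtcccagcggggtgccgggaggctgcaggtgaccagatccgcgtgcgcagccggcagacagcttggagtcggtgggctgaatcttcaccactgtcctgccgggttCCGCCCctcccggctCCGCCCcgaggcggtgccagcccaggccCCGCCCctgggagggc
USB1, upstream start: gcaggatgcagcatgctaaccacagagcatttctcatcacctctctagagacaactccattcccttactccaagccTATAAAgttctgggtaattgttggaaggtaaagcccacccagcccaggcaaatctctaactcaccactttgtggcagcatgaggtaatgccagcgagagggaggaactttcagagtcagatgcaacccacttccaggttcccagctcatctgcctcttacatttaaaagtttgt
LSM3 (chr3:14178567-14178816, plus strand): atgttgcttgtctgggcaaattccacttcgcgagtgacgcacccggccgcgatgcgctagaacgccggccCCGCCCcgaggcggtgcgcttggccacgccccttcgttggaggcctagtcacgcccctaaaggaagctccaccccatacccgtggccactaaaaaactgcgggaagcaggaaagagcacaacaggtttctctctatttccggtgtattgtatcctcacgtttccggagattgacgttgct
LSM7 (chr19:2328587-2328836, minus strand): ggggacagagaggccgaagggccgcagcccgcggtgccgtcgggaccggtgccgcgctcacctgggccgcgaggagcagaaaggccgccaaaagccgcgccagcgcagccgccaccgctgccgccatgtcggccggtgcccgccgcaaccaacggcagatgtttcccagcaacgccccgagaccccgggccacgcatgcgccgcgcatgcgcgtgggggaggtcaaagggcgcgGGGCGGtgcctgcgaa
The first USB1 sequence held 3 GC boxes and the LSM3 and LSM7 sequences 1 each, and 42.6% of 35116 RefSeq promoters of the same length held at least 1 on either strand. Members that changed less held as many or more at some starts: LSM4 had 4, the LSM5 starts 0 and 3, the MEPCE starts 3, 4 and 0, and LSM8 had 0. The number of GC boxes thus did not set the 3 members shown apart. The upstream USB1 sequence held TATAAA, as 10.7% of promoters did, and no GC box. Its GC content was 48.0%, compared with 70.0% for the other USB1 start and a median of 58% over all promoters. Also searched on both strands were CCGGAAG (in 8.52% of promoters), CCAAT (32.0%), TGCGCA (6.89%), AAGATGGC (1.36%) and TGACGTCA (1.65%), and of these only TGCGCA was found in the 4 sequences, in the first of USB1. These matches describe letters only, and which USB1 start is used in Huh7 is not known from gene-level values.

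Genes that act with the members were described by lists, whose counts stand beside 50.1% of all genes tested higher and 25.6% lower as deposited, and 36.4% and 36.5% after median-ratio scaling. Of the 4 other factors of the U6 tail and body, 2 were higher and 2 lower, 1 of them METTL16 itself, and 1 was higher without the first KO library. LARP7, the La-related protein that guides modification of U6 and protects 7SK, was at 29.69 and 33.78 TPM under sgNS, against 19.78 and 18.83 TPM under METTL16 KO. LARP7 thus fell by 0.71 on the log2 scale (± 0.070 SE, adjusted p = 3.79e-06), beside 0.50 for METTL16. SSB, the La protein that holds new uridine tails, and TUT1, which adds uridines to U6, had log2 fold changes of 0.24 and 0.23 (adjusted p = 0.000693 and 0.00521) that were 0.072 and 0.060 after median-ratio scaling (adjusted p = 0.194 and 0.369). After quantile normalization SSB was at 0.21, past the test (adjusted p = 0.00206). The USB1 to TUT1 ratio, trimming over tailing enzyme, was 1.12 and 1.15 in sgNS and 1.83 and 2.10 in KO, and the USB1 to LARP7 ratio went from 1.20 and 1.01 to 3.43 and 3.84. No library of one group reached the ratios of the other, which for both ratios follows from the levels of the genes and adds nothing to them. USB1 rose while LARP7 fell, and USB1 rose by more than TUT1. Unlike the LSM8 to LSM1 ratio, these ratios were not planned, and they are a description with no test.

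In the U4/U6 and tri-snRNP, the particles into which U6 is built, 8 of 14 genes tested were higher and 2 lower, beside 50.1% and 25.6% of all genes, with a median log2 fold change of 0.14 that was below that of all genes (4 and 6 after median-ratio scaling, and 5 higher when the first or the second KO library was left out). The members of the U4/U6 particle differed among themselves. PPIH, a cyclophilin of the U4/U6 particle, was at 39.99 and 44.9 TPM under sgNS, against 77.41 and 77.27 TPM under METTL16 KO (log2 fold change 0.87 ± 0.056 SE, adjusted p = 1.61e-07). PRPF3, which binds the U4/U6 duplex next to PPIH, was at 49.33 and 52.1 TPM under sgNS, against 83.32 and 85.43 TPM under KO (log2 fold change 0.73 ± 0.046 SE, adjusted p = 1.18e-07). PRPF4, the partner of PRPF3, was at 0.16 (adjusted p = 0.0123) and at -0.0058 after median-ratio scaling, and SNU13, which binds U4, was at 0.049 (adjusted p = 0.253) and at -0.12 after median-ratio scaling (adjusted p = 0.0191). CD2BP2, a protein of the U5 particle, rose by 0.51. Other U5 proteins differed in direction: SNRNP40 and PRPF6 fell by 0.26 and 0.25 on the log2 scale. TXNL4A rose by 0.24, and was at 0.076 after median-ratio scaling (adjusted p = 0.139). PRPF8 and EFTUD2 were at 0.057 and 0.053 (adjusted p = 0.206 and 0.257) and both at -0.11 after median-ratio scaling. SNRNP200 was at -0.10 (adjusted p = 0.0505) and DDX23 at 0.12 (adjusted p = 0.028). After median-ratio scaling SNRNP200 was at -0.27 (adjusted p = 0.000189) and DDX23 at -0.046 (adjusted p = 0.348). Of the 7 Sm proteins, which form the ring of the other snRNAs in place of the LSM proteins, 3 were higher and 1 lower with a median of 0.038, and 0 were higher and 3 lower after median-ratio scaling, and 1 was higher without the first KO library. SNRPF rose by 0.19 and SNRPD2 fell by 0.16, while SNRPD1 was 0.14 as deposited and -0.022 after median-ratio scaling.

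Of the 10 factors that drive U6 transcription, 7 were higher and 2 lower, beside 50.1% and 25.6% of all genes (median 0.32, 5 and 3 after median-ratio scaling, and 1 lower when the first sgNS library, the first KO library or the second KO library was left out). SNAPC1 and SNAPC3, subunits of the same promoter-binding complex, moved in opposite directions. SNAPC1 was at 6.02 and 6.4 TPM under sgNS, against 13.91 and 12.9 TPM under METTL16 KO (log2 fold change 1.10 ± 0.084 SE, adjusted p = 5.41e-07). SNAPC3 was at 21.41 and 21.53 TPM under sgNS, against 15.51 and 13.51 TPM under KO (log2 fold change -0.57 ± 0.075 SE, adjusted p = 3.94e-05). BDP1, a subunit of the polymerase III factor TFIIIB, rose by 0.45. In the list of the 7SK particle, which shares MEPCE and LARP7 with U6, 3 of 6 genes were higher and 2 lower (1 and 3 after median-ratio scaling). The lower genes were CDK9 (-0.29) and LARP7, which is also counted among the other U6 factors above, and HEXIM1 was higher by 0.44 on the log2 scale. The count of lower genes depended on the second KO library.

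Among 8 genes tested of the decapping machinery that works with the LSM1 ring, 6 were higher and 0 lower, beside 50.1% and 25.6% of all genes (median 0.15, below that of all genes, 2 and 2 after median-ratio scaling, and 2 higher without the first KO library). Besides LSM1 these were led by EDC3, an enhancer of decapping (0.35), and XRN1, the exonuclease that degrades decapped mRNA (0.25, and 0.083 after median-ratio scaling). Of 5 other Sm-like genes, 2 were higher and 1 lower (2 and 2 after median-ratio scaling). Higher were NAA38 (0.55), part of an N-terminal acetyltransferase, and LSM10 (0.39), a subunit of the U7 snRNP of histone mRNA processing. LSM14B was lower (-0.15), a call that was lost when the first sgNS library or either KO library was left out. After median-ratio scaling LSM14B was at -0.32 (adjusted p = 0.000144), and after quantile normalization at -0.27 (adjusted p = 0.000773). Of 15 genes tested for assembly of Sm-class snRNPs and Cajal bodies, 8 were higher and 2 lower, beside 50.1% and 25.6% of all genes. The median was 0.13, and 4 were higher and 6 lower after median-ratio scaling. The count of lower genes depended on the second sgNS library and on each KO library. The largest changes were those of DDX20 (0.55), GEMIN8 (-0.41) and the cap hypermethylase TGS1 (0.36). Reads of SMN1 and SMN2, which are near-identical copies, may be split between them.

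**Figure D4:**
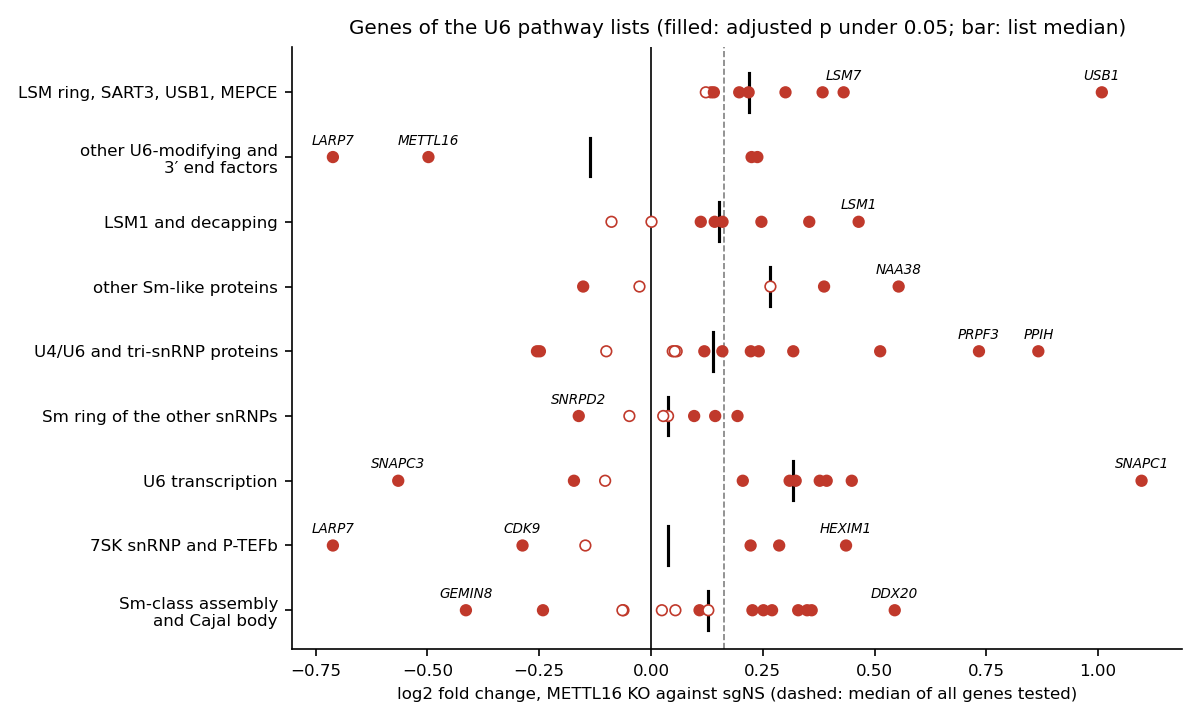
Log2 fold change (METTL16 KO against sgNS, TPM as deposited) of each gene tested in the members' list and 8 related lists, 1 point per gene, filled where the adjusted p was under 0.05. The short bars are list medians and the dashed line is the median of all genes tested (0.16). USB1, PPIH, PRPF3 and SNAPC1 lie farthest to the right and LARP7 farthest to the left.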

How the data were processed

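Huh7 RNA was sequenced from libraries of a stranded mRNA kit, although the labels also name depletion of ribosomal RNA. The authors used Cutadapt for trimming, STAR for mapping against GRCh38 and RSEM for the gene values. Versions, annotation and the strand setting are not given in the sources used here. The authors deposited 1 table of gene values that the methods call RPKM, but each of the 4 libraries sums to 1000000, so the deposited values were treated as TPM. TPM keeps no read counts, so depth is unknown, and neither counting intervals nor count tests are given.

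Genes with a mean of at least 1 TPM were tested on log2(TPM + 0.1) with limma 3.58.1 in R 4.3.3 (eBayes with a mean-variance trend, two-sided, 2 residual degrees of freedom), METTL16 KO against sgNS, with Benjamini-Hochberg adjustment over 11971 genes. The variance of each gene was moderated towards that trend, so the p-values rest on more than these 2 residual degrees of freedom. Fold changes are on that scale and understate those of low genes. Fits were tested on simulated data. Members, lists and the choice of tests were made with earlier results of these data known, and no list was tested as a set. All members, METTL16, LSM1 and up to 3 genes past the test with the largest change per list were named. TUT1, PRPF4, SNU13, SNRNP40, PRPF6, PRPF8, EFTUD2, TXNL4A, SNRNP200, DDX23, ZNF319, FICD, ZCWPW1, SMN1 and SMN2 were named after their values were seen. Tables and figures used Python 3.11.15, pandas 2.3.3, numpy 2.4.6 and matplotlib 3.10.9. Alternatives were pseudocounts of 1 and 0.01, no filter, a minimum mean of 5 TPM, median-ratio scaling, quantile normalization, no trend, the replicate block and each library left out in turn.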

Additional observations from a re-analysis of the deposited data

How the results depend on the processing

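USB1, LSM7, LSM3 and SART3 kept their direction and stayed past the test under 12 of 12 alternatives, with log2 fold changes from 0.84 to 1.05, 0.27 to 0.48, 0.22 to 0.43 and 0.14 to 0.34. The test was passed under 9 of 12 alternatives by LSM4 and MEPCE, 7 by LSM8, 6 by LSM6 and 2 by LSM5. The number of members higher was 8 as deposited, 4 after median-ratio scaling and 5 after quantile normalization. Values turned below 0 with median-ratio scaling for LSM4 (-0.031), LSM5 (-0.043) and LSM6 (-0.025) and with quantile normalization for LSM5 (-0.028), as these scalings brought the median of all genes from 0.16 to -0.0016 and 0.0097. The split of all genes was 5999 higher and 3065 lower as deposited, 4359 and 4375 after median-ratio scaling and 4420 and 4248 after quantile normalization, which also lowered the genes higher by at least 1.5-fold from 2330 to 1493. Leaving out 1 library gave 5 (without the second METTL16 KO library) to 9 members higher; the remaining library of that group is then assumed to vary like the others. Deviations from the group means had a correlation of -0.045 over 11971 genes between libraries of the same number, so no shared effect of library number was seen. This value cannot tell whether the samples were paired by design. With the replicate block, which leaves 1 residual degree of freedom, 8 members were higher, as were 6048 genes in all, with 3112 lower, and no member changed its call. This fit was not a stricter test. For USB1 its SE was larger than in the main fit (0.058 against 0.051), but its adjusted p was smaller (limma, 2.88e-66 against 2.14e-08). Such values lean on the spread over all genes, so the block cannot show that the calls would hold if the samples were paired. The LSM8 to LSM1 log2 ratio difference was -0.27 after quantile normalization.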

Other observations

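Lists chosen after the values were seen add related RNA-binding factors. Of 8 genes tested of the minor spliceosome, which uses U6atac in place of U6, 7 were higher and 0 lower, beside 50.1% and 25.6% of all genes tested (median log2 fold change 0.27; 3 and 1 after median-ratio scaling). SNRNP25 was at 66.35 and 63.18 TPM under sgNS, against 94.73 and 101.66 TPM under METTL16 KO (log2 fold change 0.60 ± 0.048 SE), and ZRSR2, which recognises minor splice sites, and ZMAT5 were higher by 0.53 and 0.41. Among 5 La-related genes other than LARP7, 4 were higher and LARP1 was lower (-0.10), and 3 were higher after median-ratio scaling and after quantile normalization, while LARP7 fell by 0.71. LARP6 was at 4.81 and 4.41 TPM under sgNS, against 9.95 and 10.25 TPM under KO (1.12 ± 0.093 SE), and LARP4 was higher by 0.58. Of the uridylyltransferases other than TUT1, TUT7 (listed as ZCCHC6) was higher by 0.58 and TUT4 (listed as ZCCHC11) by 0.18, the latter 0.017 after median-ratio scaling, and DIS3L2, the exonuclease of uridylated RNA, did not pass the test (0.23, adjusted p = 0.0705).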
